A study of Mus musculus with 6 samples.

Results

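The genes described here are p53 with its inhibitors and transcriptional targets, and the core machinery of apoptosis, measured in mouse embryonic hearts at embryonic day 9.5. They were chosen by symbol: 43 genes, of which 17 belong to p53 and its targets and 26 to the apoptosis machinery, among 15324 symbols of the deposited table. All 43 were found, in 44 rows, because Bcl2l2 has 2 rows. Bulk RNA was sequenced in 3 libraries of wild-type hearts and 3 of hearts that carried on both alleles a deletion, made with CRISPR-Cas9, of the interval called H2-URI, 373 kb of sequence upstream of Hand2. Each group had replicates 1 and 2 labelled female and replicate 3 labelled male. How many hearts went into a library, and how many founders the allele goes back to, is not given in the labels, so p-values measure only the spread between these libraries, which may be partly technical. In bulk tissue fewer cells of a type and less RNA per cell cannot be told apart.

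The transcription factor p53 is held at low activity by Mdm2, which ubiquitinates it, and by Mdm4, which masks its activation domain. Stress stabilises p53, and it then induces genes of cell cycle arrest, repair and death, Mdm2 among them. In the mitochondrial pathway BH3-only proteins neutralise the guardians Bcl2, Bcl-xL, Bcl-w and Mcl1 and activate Bax and Bak, cytochrome c leaves the mitochondrion, and Apaf1 assembles it with caspase 9 into the apoptosome. Death receptors such as Fas act through Fadd and caspase 8. p53 is controlled largely at the protein level and caspases by cleavage, neither of which an RNA measurement reads. Embryos without Hand2 die in midgestation with a small right ventricle, and cell death has been described in their branchial arches. The comparison asks which of these transcripts differ when the upstream interval, and with it most Hand2 expression, is missing from the heart.

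Some p53 targets carry the sequence that p53 binds close to a start of transcription, and these are shown because they let a reader set the element beside the measured level. The p53 response element was searched as 2 adjoining half-sites of 10 bases, with the C and G of each half-site required. The search ran in RefSeq windows (build GRCm38.p6) from 250 bases before to 50 after each start. The element is its own reverse complement, so 1 search covers both strands. With at most 1 mismatch, a limit set after the matches were seen, it was found for 22 of 27025 genes (0.0814%), 3 of them among the 12 p53 genes with a window: Cdkn1a, Ccng1 and Gtse1. None of the 24 apoptosis genes with a window matched at that limit, and with 3 mismatches allowed Bbc3 did, where 1.63% of all genes match. No window was held for Bik, Zmat3, Tnfrsf10b, Pmaip1, Rrm2b, Trp53inp1 and Perp. The Cdkn1a stretch is chr17:29090868-29090958 on the plus strand, before the more upstream of 2 starts, and the Ccng1 stretch is chr11:40755402-40755536 on the minus strand. The Gtse1 site is chr15:85859945-85859964 (plus strand) and the Bbc3 site chr7:16309486-16309505 (plus strand). Capitals mark the 20 bases of the site, which has 1 mismatch to the pattern in the first 3 genes and 3 in Bbc3.
Cdkn1a: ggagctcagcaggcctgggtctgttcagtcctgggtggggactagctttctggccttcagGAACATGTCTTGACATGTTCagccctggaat
Ccng1: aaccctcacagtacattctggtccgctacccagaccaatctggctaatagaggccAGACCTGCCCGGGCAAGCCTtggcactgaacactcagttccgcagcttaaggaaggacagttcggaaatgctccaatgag
Gtse1: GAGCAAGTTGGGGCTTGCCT
Bbc3: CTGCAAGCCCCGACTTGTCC
A match describes these letters and does not show binding. In the RNA the estimates of the 4 genes lay on both sides of 0: the log2 fold changes, deletion minus wild-type, were −0.34 for Cdkn1a, −0.26 for Ccng1, 0.01 for Gtse1 and 0.31 for Bbc3, and no one of them passed the test over all genes. At the limit of 3 mismatches that admits Bbc3, 6 of the 12 p53 genes match, and the further ones, Aen, Sesn1 and Trp53, had −0.16, −0.06 and −0.01.

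The reads recovered from the normalized counts, summed over the deposited rows, came to between 25583210 and 32043595 per library. Hand2, the gene beside the deleted interval, stood at 3911, 3789 and 4407 normalized counts (read counts divided by a size factor per library) in wild-type replicates 1 to 3 and at 1025, 1158 and 1163 in the deletion, a log2 fold change of −1.85 (SE 0.08, adjusted p = 1.51e-05, limma). Columns were given to samples by the code in the sample's title. In 4 of the 6 samples the file on record carries a code of the opposite group. Taking the files on record instead, Hand2 had a log2 fold change of 0.57 and limma called 0 rows of the table (414 at an unadjusted p under 0.05). All 6 cardiomyocyte markers were measured and their sum was 645631 to 702112 normalized counts in wild-type and 703309 to 771015 in the deletion. The 4 endothelial markers summed to 11954 to 12760 and 13265 to 13678. Of the macrophage list Csf1r and Mrc1 were in the table, with sums of 133 to 186 and 275 to 334, while Ptprc, Adgre1, Cx3cr1 and Tyrobp were not. The 4 epicardial markers summed to 1303 to 2196 in wild-type and 2001 to 3286 in the deletion, the 7 measured pharyngeal and foregut epithelial markers to 5650 to 7567 and 7505 to 7955, and the 1 measured of 5 neural markers was at 87.4 to 127 and 43.3 to 122. Of the single markers Krt19, Mrc1 and Kdr were called, with log2 fold changes of 0.86, 1.08 and 0.33. The other endothelial markers, Pecam1, Cdh5 and Nfatc1, had −0.0017, −0.0022 and 0.02, so the higher endothelial sum lies in Kdr. The higher cardiomyocyte sum lies in Myh6, Myh7 and Ttn, at 0.29, 0.18 and 0.40, whose groups did not overlap. Tnnt2, Actc1 and Nkx2-5 had −0.12, 0.02 and 0.07, with overlap. Corrected for transcript length and GC content, Myh6, Myh7 and Ttn had 0.16, 0.06 and 0.01. The epicardial markers Wt1, Tbx18 and Tcf21 had 0.47, 0.72 and 0.88, and Upk3b had −0.12. Csf1r had 0.24. Of the other foregut markers Krt8, Krt18 and Cdh1 had 0.06, −0.03 and −0.37, and Epcam, Foxa1 and Sox2 had 0.24, 0.77 and 1.6. Summed primitive erythroid markers varied widely within both groups, from 119451 to 348466 normalized counts in wild-type and from 84741 to 451065 in the deletion. The part of these cell types in the values given here was not tested.

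In limma and edgeR none of the 43 genes was called different between deletion and wild-type hearts. Of the 44 rows 0 passed at an adjusted p under 0.05 in limma-trend, where 3.05% of all rows of the table did, and 0 passed in edgeR, against 3.26% of all rows. DESeq2 on recovered reads called 2, Casp8 and Cycs, both lower, where it called 7.43% of all rows. At an unadjusted p under 0.05 limma had 8 of 44 (18.2%), against 21.4% of all rows. Of these 6 were lower and 2 higher, where 11.2% of all rows were lower and 10.2% higher. The groups did not overlap for 10 of 44 rows (22.7%), against 27.4% of all rows. In 6 of them the deletion was lower and in 4 higher, where the shares of all rows were 14.5% and 12.9%. The size of the log2 fold change, without its sign, had a median of 0.11 over the 44 rows and 0.14 over the table.

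**Figure D1:**
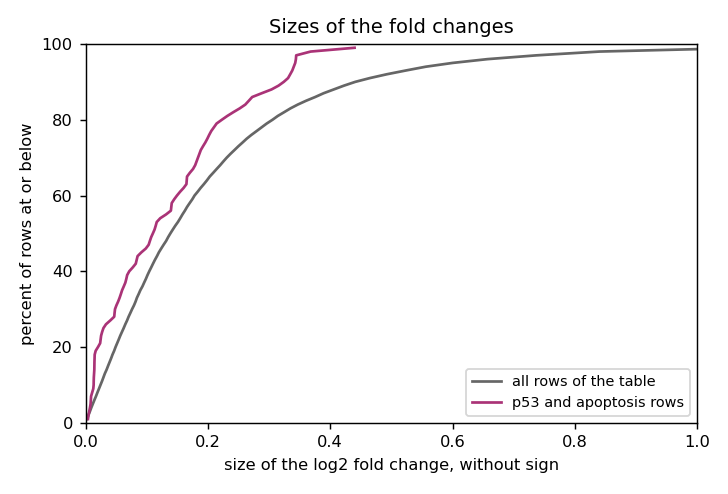
The share of rows (vertical axis, percent) whose log2 fold change, without its sign, is at or below the value on the horizontal axis, for all rows of the table (grey) and for the p53 and apoptosis rows (purple). The medians are 0.14 and 0.11, and the purple curve runs to the left of the grey one over most of its length.

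The measurements were tight enough to bound most of these differences. The 95% interval of the fold change, not adjusted for the number of genes, lay within 2-fold in either direction for 43 of 44 rows, all but Pmaip1, and within 1.5-fold for 39. The median distance from the estimate to the end of its interval was 0.22 on the log2 scale, against 0.24 over all rows. For the 17 p53 genes all intervals lay within 2-fold and 16 within 1.5-fold, the exception being Cdkn1a.

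**Figure D2:**
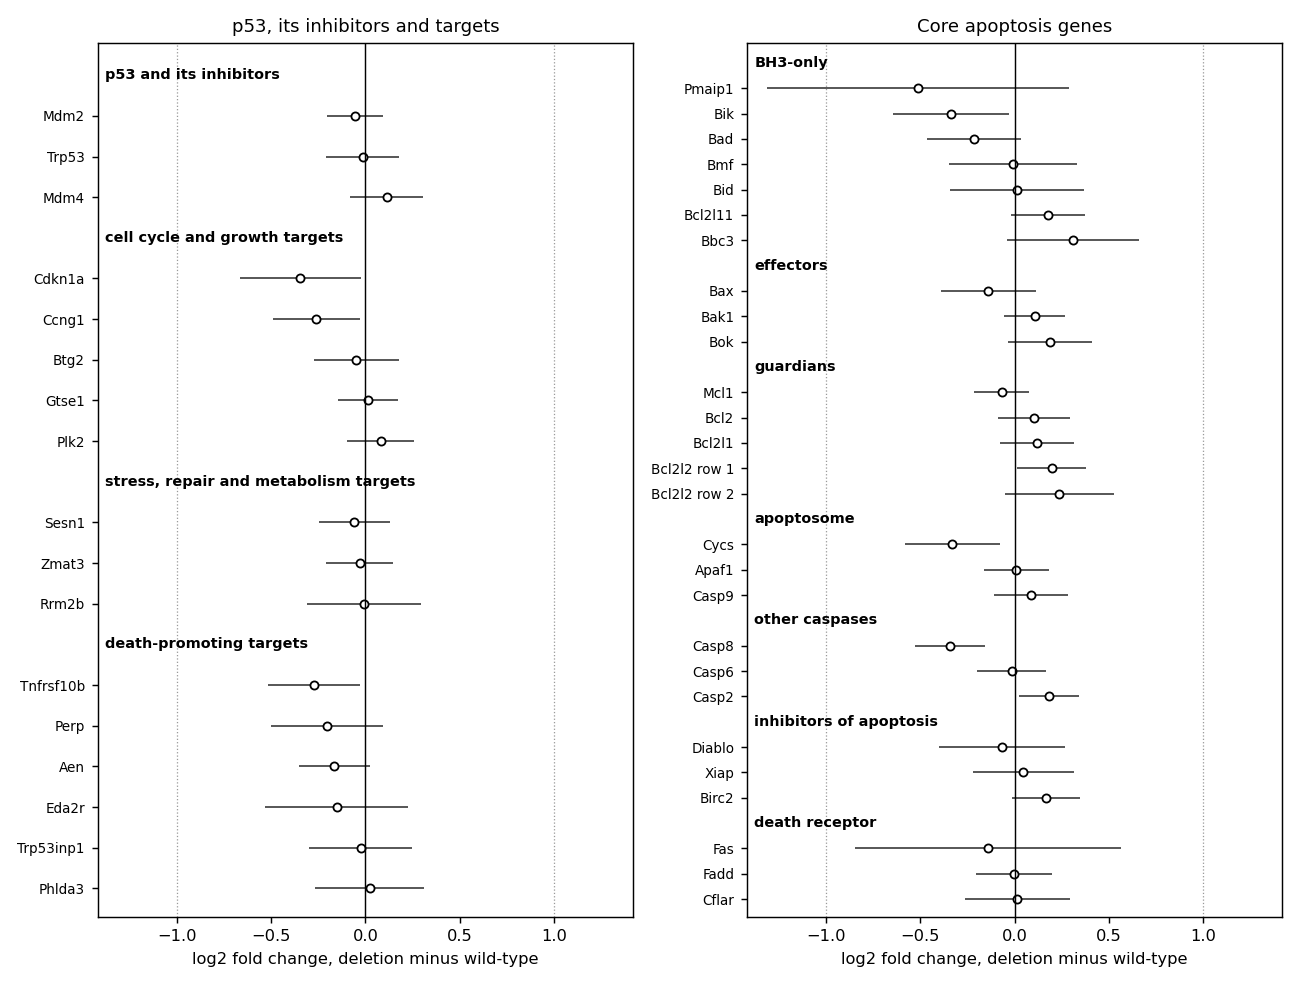
Log2 fold change, deletion minus wild-type, on log2(normalized count + 1) (points) with its 95% interval (lines) for the 17 p53 genes (left) and the 27 rows of the apoptosis genes (right), grouped by role. All points are open because none passed an adjusted p of 0.05, and dotted lines mark a 2-fold change.

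Among p53 and its inhibitors the transcripts were abundant and level. Trp53, the gene of p53 itself, was measured at 3370, 3115 and 2702 normalized counts in wild-type hearts, and at 2894, 3031 and 3139 with the deletion. The deletion values lie inside the wild-type range, and the log2 fold change was −0.01 (95% interval −0.20 to 0.17). Mdm2, both inhibitor and target of p53, stood at 1877, 1825 and 2001 in wild-type against 1870, 1812 and 1804 in the deletion, again with overlap (log2 fold change −0.05, 95% interval −0.20 to 0.09). Mdm4 stood at 3581 ± 429 and 3855 ± 8.16 (SD, n = 3), with a log2 fold change of 0.11. Wild-type replicate 1, at 3190, was its lowest library, and the 3 deletion libraries lay between 3846 and 3862.

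The 15 p53 targets, a list that counts Mdm2 and leaves out Trp53 and Mdm4, had a median log2 fold change of −0.05, against −0.01 over all rows, and lay from −0.34 to 0.08. None was called, 12 had a negative and 3 a positive estimate, and 3 of them (20%), all lower, had an unadjusted p under 0.05, a share near the 21.4% of all rows. Of all 15330 rows 7906 had a negative estimate, and the 24 further p53 targets described last were split 11 negative to 13 positive. The split of 12 to 3 moved with the processing. With equal totals without haemoglobin it was 9 to 6, the median was −0.01 and 0 p53 genes had an unadjusted p under 0.05, while with fold changes corrected for transcript length and GC content it was 14 to 1, with a median of −0.08 and 4 such genes. It was 14 to 1 without deletion replicate 1, and 10 to 5 without wild-type replicate 3 or without deletion replicate 3.

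Cell cycle and growth targets included the largest estimate. Cdkn1a encodes p21, the inhibitor of cyclin-dependent kinases through which p53 arrests the cycle. It was at 434, 311 and 446 normalized counts in wild-type libraries and at 328, 293 and 305 in those of the deletion. Wild-type replicates 1 and 3 were above every deletion library, and replicate 2 was among them (log2 fold change −0.34, 95% interval −0.66 to −0.03, adjusted p = 0.198, limma). Without wild-type replicate 2 it was called (log2 fold change −0.51, adjusted p = 0.027, limma), in a fit that called 1161 of 15330 rows, against 467 with all libraries. Without wild-type replicate 3 the estimate was −0.25 (adjusted p = 0.443, limma). Ccng1, the gene of cyclin G1, which recruits a phosphatase to Mdm2, stood at 3062, 3173 and 3839 normalized counts in wild-type, and the deletion hearts at 2899, 2499 and 3001. Here the groups did not overlap, but the gap between 3062 and 3001 was small beside the wild-type range (log2 fold change −0.26, adjusted p = 0.175, limma), and without wild-type replicate 3 the estimate was −0.16. Gtse1, which binds p53 in G2 phase, Btg2, an antiproliferative early response gene, and Plk2, a polo-like kinase, had log2 fold changes of 0.01, −0.05 and 0.08.

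Targets of the stress, repair and metabolism group were near 0: Sesn1, a sestrin that restrains mTORC1, at −0.06, Zmat3, an RNA-binding zinc finger protein, at −0.03 and Rrm2b, the p53-inducible ribonucleotide reductase subunit, at −0.0053. Sesn1 was at 498 ± 11.1 normalized counts in wild-type against 478 ± 17.5 in the deletion (SD, n = 3). Its groups missed each other by 1 normalized count, and the 95% interval reached from −0.24 to 0.12.

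Death-promoting targets of p53 had estimates from −0.27 to 0.02. Tnfrsf10b, the receptor for the death ligand TRAIL, stood at 360, 318 and 328 normalized counts in wild-type and 262, 300 and 270 in the deletion. Every deletion library was below every wild-type library (log2 fold change −0.27, 95% interval −0.51 to −0.04), and the difference did not pass (adjusted p = 0.176, limma). Perp, a membrane protein of desmosomes and a p53 effector, was at 1006 ± 187 and 866 ± 81.5 (SD, n = 3, log2 fold change −0.20, which was −0.35 without wild-type replicate 1 and −0.08 without wild-type replicate 3), and Aen, an apoptosis-enhancing nuclease, at 2132 ± 199 and 1899 ± 103 (−0.16). Eda2r, a receptor of the TNF receptor family, Trp53inp1, a stress-induced nuclear protein, and Phlda3, which competes with Akt for membrane lipids, had −0.15, −0.03 and 0.02.

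Of the 15 targets 9 had their highest value in wild-type replicate 3. Averaged over the 15 targets, log2(normalized count + 1) lay 0.16 above the mean of the 6 libraries in wild-type replicate 3, and stood at −0.09 in deletion replicate 3, with the other libraries from −0.06 to 0.00. The highest and the lowest of the 6 are the 2 libraries labelled male. Wild-type replicate 3 also had the lowest summed erythroid markers of its group (119451 normalized counts) and deletion replicate 3 the highest of all (451065). Deletion replicate 1 had the lowest erythroid sum of all (84741), with its target mean at 0.0015. Wild-type replicate 2 had an erythroid sum of 348466, with its target mean at −0.01. The part of sex or of blood content in the target levels was not tested.

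**Figure D3:**
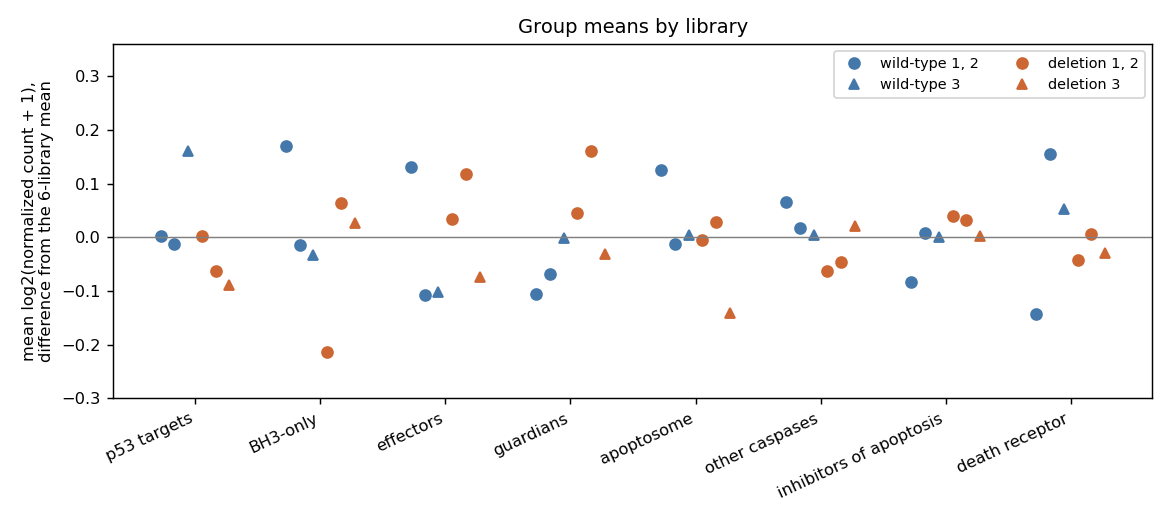
For each group of genes, the mean of log2(normalized count + 1) in each library as a difference from the mean over the 6 libraries, with wild-type in blue, deletion in orange and replicate 3 of each group as triangles. Wild-type replicate 3 stands highest for the p53 targets at 0.16, and wild-type and deletion points overlap in each of the 8 groups shown.

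In the apoptosis machinery the estimates lay on both sides of 0. Of 27 rows for 26 genes, 12 had a negative and 15 a positive estimate, with a median log2 fold change of 0.01, and 0 passed in limma or edgeR. An unadjusted p under 0.05 was found for 5 rows (18.5%, against 21.4% of all rows): Casp8, Cycs and Bik, which were lower, and Casp2 and 1 row of Bcl2l2, which were higher. With equal totals without haemoglobin 9 of the 27 rows had such a p, against 3302 of all 15330 rows. The split was then 9 negative to 18 positive. Corrected for transcript length and GC content it was 14 to 13, with 7 such rows, and the replicate block gave 4 such rows.

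The BH3-only genes, whose products start the mitochondrial pathway, did not share a direction. Bbc3, which encodes Puma, the BH3-only protein most tied to p53, stood at 118, 97 and 114 normalized counts in wild-type hearts, and in the deletion 123, 154 and 132. All deletion libraries were above all wild-type libraries, by little for replicate 1 (log2 fold change 0.31, 95% interval −0.03 to 0.65, adjusted p = 0.28, limma). Bik, a BH3-only protein of the endoplasmic reticulum, went the other way, with 241, 187 and 226 in wild-type and 178, 178 and 158 in the deletion (log2 fold change −0.34, adjusted p = 0.189, limma), and these groups did not overlap either. Pmaip1, the gene of Noxa, was low, at 35.2, 55.2 and 36.6 in wild-type and 16.9, 31.6 and 44.3 in the deletion. Between 16 and 62 reads stood behind each of these Pmaip1 values, and its interval, −1.31 to 0.29, was the widest among the members. Bcl2l11, which encodes Bim, had a log2 fold change of 0.18, Bad, which growth factor signals inactivate, −0.21, and Bid and Bmf 0.01 and −0.0082. Bid is the substrate of caspase 8 that links death receptors to the mitochondrion.

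The effectors that perforate the outer mitochondrial membrane were expressed at levels of the same order, and none was called. Bax, itself a p53 target, was measured at 909, 693 and 740 normalized counts in wild-type against 700, 760 and 657 in the deletion, with overlapping groups (log2 fold change −0.14, 95% interval −0.39 to 0.11). Bak1 and Bok had log2 fold changes of 0.11 and 0.19. Per kb of the longest annotated transcript, a rough scale because the isoform in use is not known, the wild-type level was 710 normalized counts for Bax, 638 for Bak1 and 586 for Bok.

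Guardian genes had estimates from −0.07 to 0.24. Mcl1, a short-lived guardian protein, stood at 4453, 4677 and 4920 normalized counts in wild-type hearts and at 4576, 4365 and 4445 with the deletion (log2 fold change −0.07, 95% interval −0.21 to 0.07). Bcl2 was at 1430, 1664 and 1764 in wild-type against 1766, 1729 and 1701 in the deletion, where wild-type replicate 1 was the one low value (log2 fold change 0.10). Bcl2l1, the gene of Bcl-xL, had 1564, 1330 and 1401 against 1494, 1694 and 1470 (0.12), with overlap. The 2 rows named Bcl2l2, the gene of Bcl-w, are not told apart in the table, and in GENCODE M21 its locus overlaps a read-through gene, so reads may be split between them. The first row gave 732, 799 and 793 in wild-type against 881, 949 and 836 in the deletion, without overlap (log2 fold change 0.20, adjusted p = 0.19, limma). In the second, from 1115 to 1212 in wild-type and from 1134 to 1683 in the deletion, the groups overlapped (0.24). On the scale per kb, Mcl1 was the highest guardian in wild-type at 1370 normalized counts, followed by Bcl2l1 at 558. Bcl2 was at 225, and the first and second rows of Bcl2l2 were at 203 and 301.

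Set against each other, BH3-only and effector genes minus guardians gave a mean log2 difference that, relative to its mean over the libraries, was 0.26, 0.03 and −0.05 in wild-type libraries and −0.19, −0.08 and 0.03 in those of the deletion. The groups overlapped, and the 2 outermost libraries were the replicates numbered 1. Each row weighs alike in these means, which count both rows of Bcl2l2 and include Pmaip1, at 16.9 normalized counts in deletion replicate 1. This balance is a description of transcripts and says nothing of the proteins.

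Apoptosome genes were level apart from cytochrome c. Apaf1 stood at 1864, 1918 and 1811 normalized counts in wild-type against 1996, 1943 and 1701 in the deletion (log2 fold change 0.01, 95% interval −0.16 to 0.18), so the deletion values lay on either side of the wild-type ones. Casp9, its initiator caspase, had 941, 907 and 782 against 931, 956 and 896 (log2 fold change 0.09). Cycs, which also carries electrons in the respiratory chain, was the most abundant member, at 18859, 14275 and 18150 normalized counts in wild-type hearts, against 13554, 14534 and 12489 with the deletion. Wild-type replicate 2 lay inside the deletion range. The log2 fold change of −0.33 (95% interval −0.58 to −0.09) did not pass in limma (adjusted p = 0.124) or edgeR (adjusted p = 0.128) but did in DESeq2 (adjusted p = 0.0282). Without wild-type replicate 2 it was called in limma (log2 fold change −0.45, adjusted p = 0.0184), in a fit that called 1161 of 15330 rows. Cycs has processed pseudogenes, so its count depends on how shared reads were treated, which no source used here states.

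Casp8, the initiator caspase of death receptors and a brake on necroptosis, had the smallest adjusted p of the 43 genes in limma. It was at 596, 562 and 545 normalized counts in wild-type libraries against 455, 446 and 441 in the deletion, which left a gap between the groups wider than the range within either. The log2 fold change was −0.34 (SE 0.08, 95% interval −0.53 to −0.16). Its adjusted p was 0.0548 in limma, 0.0571 in edgeR and 0.0379 in DESeq2. With each library left out in turn limma gave an adjusted p from 0.0585 to 0.196. Casp2, a caspase activated by the PIDDosome, was at 1556, 1689 and 1630 in wild-type against 1778, 1796 and 1964 in the deletion. Its groups did not overlap and the difference was small (log2 fold change 0.18, 95% interval 0.03 to 0.34, adjusted p = 0.164, limma). Casp6, an executioner caspase, had a log2 fold change of −0.02.

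None of the remaining death receptor genes and inhibitors of apoptosis was called. Fas was the member with the lowest mean, at 20.4, 37.4 and 23.8 normalized counts in wild-type and 23.2, 29.7 and 19.4 in the deletion. The groups overlapped, and with 18 to 42 reads per library its interval was wide, from −0.84 to 0.56. Its adaptor Fadd and the caspase 8 inhibitor Cflar had log2 fold changes of −0.0030 and 0.01. Xiap, which binds and blocks caspases, had 0.05, Birc2, a ubiquitin ligase of the inhibitor family, 0.17, and Diablo, the mitochondrial antagonist of these inhibitors, −0.07. Among the 3 only the groups of Birc2 did not overlap, at 905 ± 58.5 and 1015 ± 46.1 normalized counts (SD, n = 3).

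**Figure D4:**
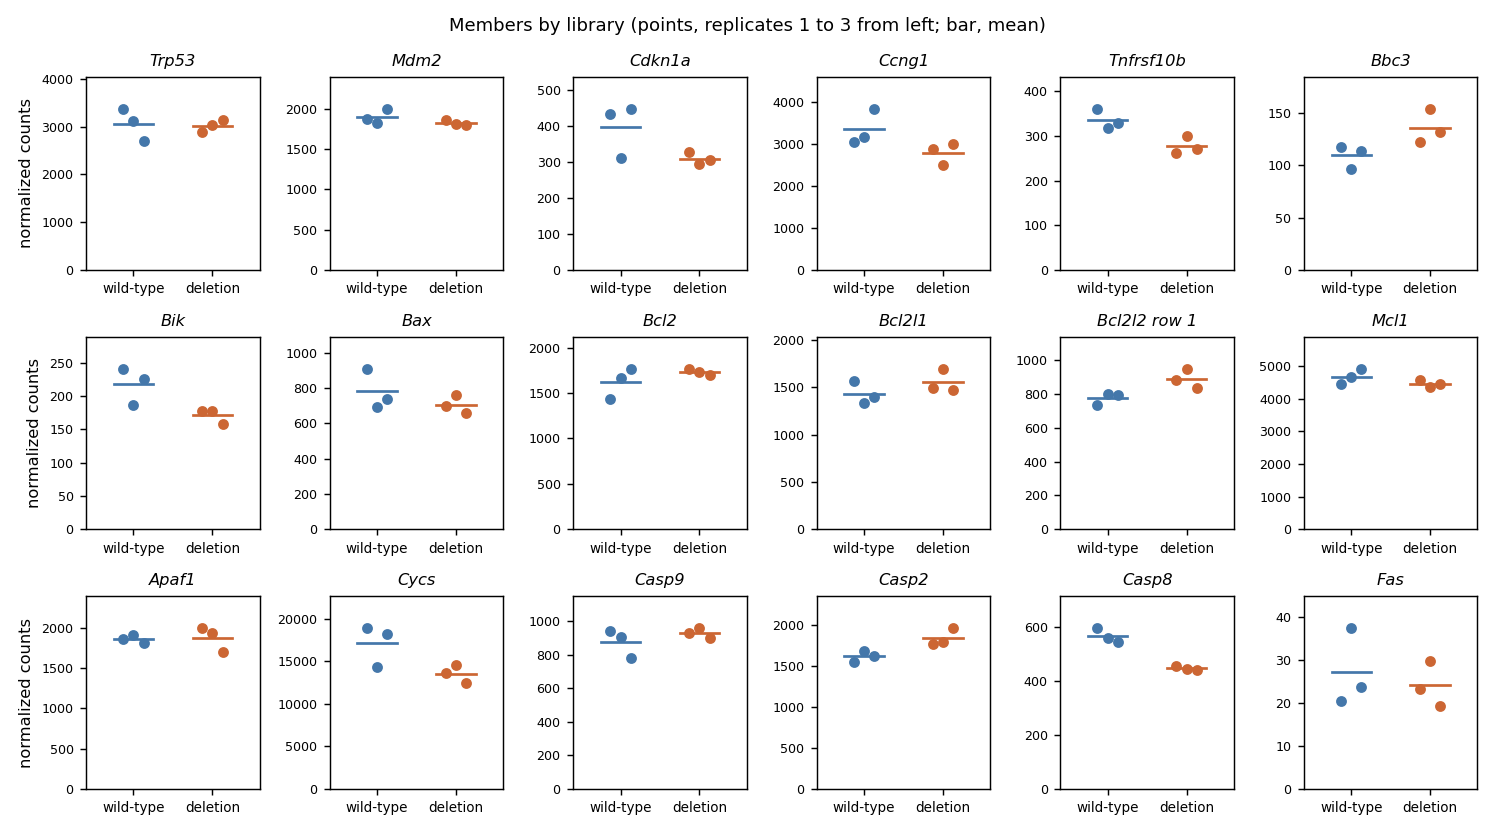
Normalized counts in each library for 18 members, with wild-type in blue and deletion in orange, replicates 1 to 3 from left to right and a bar at the group mean, on axes that start at 0. Casp8 is the panel with the clearest gap, 545 to 596 in wild-type against 441 to 455 in the deletion, while Trp53, Mdm2, Bax and Apaf1 overlap.

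Further genes of the same pathways, listed by function, held a few calls. Of 40 measured p53 targets and regulators 2 rose, 1 fell and 37 did not pass, with a median log2 fold change of 0.05. Over all rows 1.55% rose and 1.5% fell. Ier3, an early response gene of growth and stress signals, rose from 126, 108 and 133 normalized counts to 216, 209 and 228 (log2 fold change 0.83, adjusted p = 0.0131, limma). Ddit4, an inhibitor of mTORC1 that hypoxia and DNA damage induce, rose from 980, 713 and 684 to 1177, 1076 and 1233 (log2 fold change 0.57, adjusted p = 0.0488, limma). In both genes every deletion library was above every wild-type library. Rps27l, a ribosomal-protein-like gene with a p53 element 1 mismatch from the full pattern in its window, fell from 4308, 2975 and 3867 to 2467, 2616 and 2581 (log2 fold change −0.52, adjusted p = 0.0461, limma). Its site reads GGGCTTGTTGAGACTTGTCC, in capitals throughout, at chr9:66946296-66946315 (plus strand, GRCm38.p6). Each of these calls ended without at least 1 library: Ier3 without any 1 of the deletion libraries (adjusted p from 0.0608 to 0.0663), Ddit4 without any library but wild-type replicate 1 and Rps27l without any but wild-type replicate 2. The call of Rps27l also ended when fold changes were corrected for the length and GC content of transcripts (−0.33, adjusted p = 0.118) and after quantile normalization (adjusted p = 0.0504), and that of Ddit4 in edgeR (adjusted p = 0.0501). With sex as a covariate the adjusted p was 0.0707 for Rps27l and 0.0726 for Ddit4, and with the replicate block 0.0746 and 0.0646. Rps27l closely resembles Rps27, so its reads are uncertain where the copies are alike.

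Of 24 measured further apoptosis genes 1 rose, 0 fell and 23 did not pass, against 3.05% of all rows called, with a median log2 fold change of −0.05. An unadjusted p under 0.05 in limma was found for 8 (33.3%, against 21.4% of all rows), 5 lower and 3 higher. With equal totals without haemoglobin 3 had such a p. The groups did not overlap for 10 (41.7%, against 27.4% of all rows), 6 lower and 4 higher. Bnip3, a BH3-like mitochondrial protein of mitophagy and a hypoxia-inducible gene, rose from 5957, 6328 and 6719 normalized counts to 8841, 7751 and 8243 (log2 fold change 0.39, adjusted p = 0.0263, limma). Its relative Bnip3l was at 5504, 6450 and 6143 in wild-type against 7347, 7091 and 7174 in the deletion, without overlap, and did not pass (0.26, adjusted p = 0.0805, limma). Tnfrsf12a, the receptor of the ligand TWEAK, had 322, 254 and 378 against 441, 422 and 486 (0.51, adjusted p = 0.0809, limma). The call of Bnip3 ended when wild-type replicate 3 or any single deletion library was left out (adjusted p from 0.0507 to 0.128) and with the replicate block (adjusted p = 0.0742), and DESeq2 called Bnip3l and Tnfrsf12a as well.

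**Figure D5:**
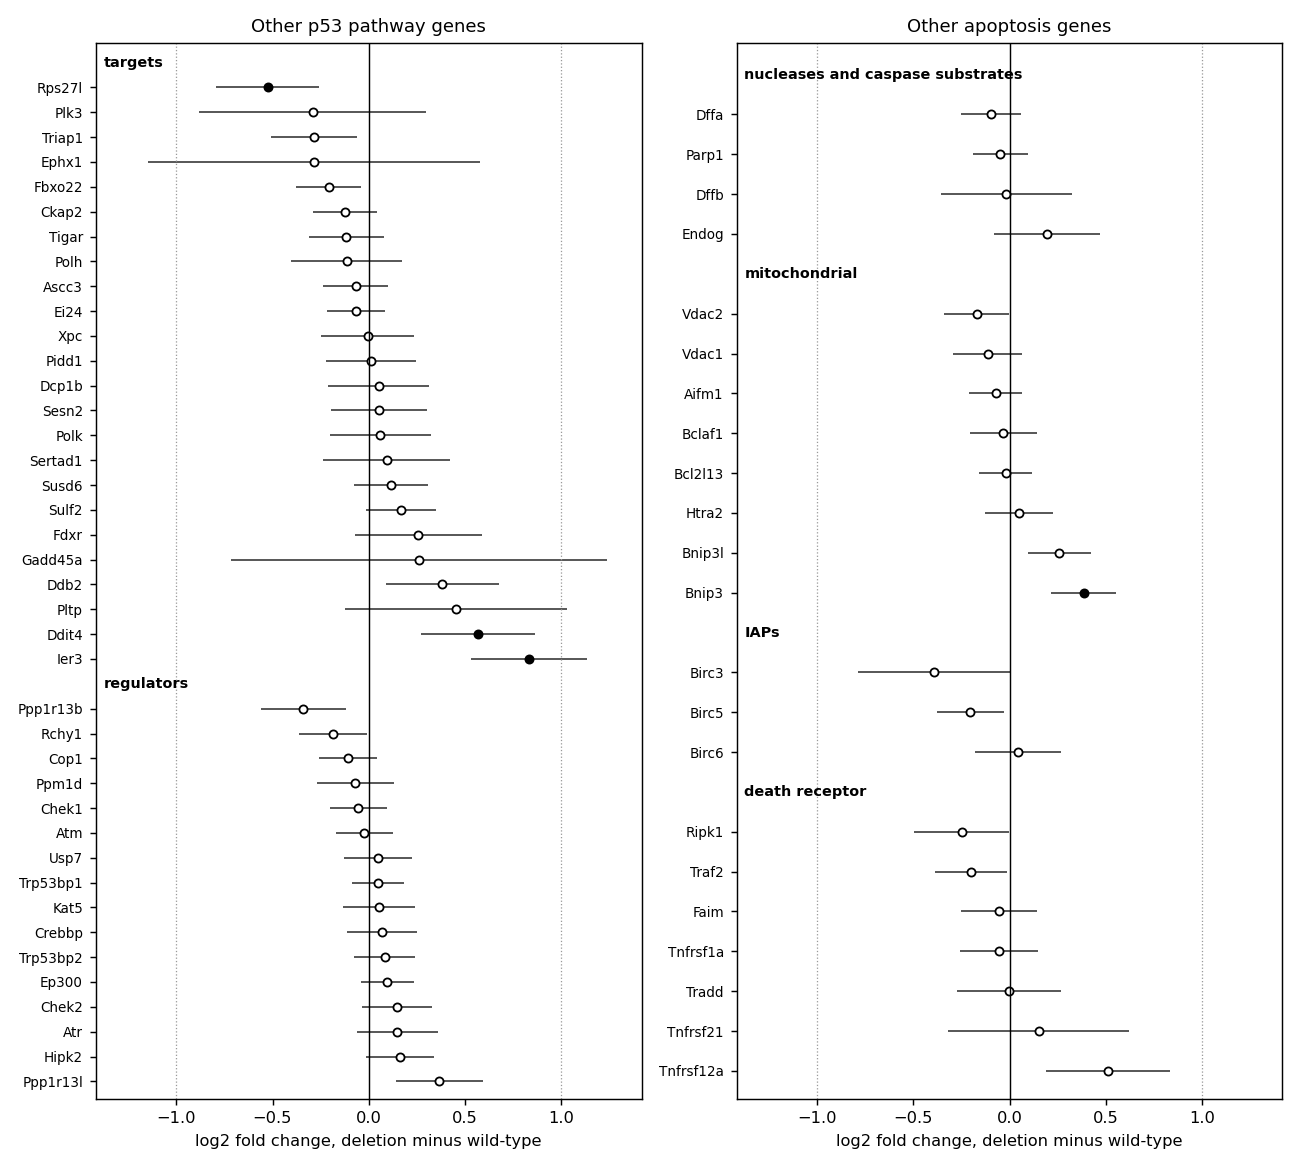
Log2 fold change, deletion minus wild-type, with its 95% interval for 40 further p53 pathway genes (left) and 22 of the 24 further apoptosis genes (right), as measured on log2(normalized count + 1). Filled points passed an adjusted p of 0.05 (Rps27l, Ddit4, Ier3 and Bnip3), open points did not, and dotted lines mark a 2-fold change.

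Btg2, Plk2 and Ier3 are also early response genes, a class that handling of tissue can induce. Of 16 measured immediate early genes 1, Jund, rose in the deletion and 0 fell, against 3.05% of all rows called. The call of Jund (log2 fold change 0.39, adjusted p = 0.0252, limma) ended when corrected for transcript length and GC content (0.24, adjusted p = 0.118), with the replicate block (adjusted p = 0.0646) and without some single libraries (adjusted p up to 0.125). At an unadjusted p under 0.05 limma had 5 of the 16 (31.2%, against 21.4% of all rows), 3 higher and 2 lower. Beside Jund these were Dusp1 and Nr4a1, each at 0.33, and Klf2 and Hspa1b, at −0.38 and −0.59. The groups did not overlap for 6 of the 16 (37.5%, against 27.4% of all rows), 3 in each direction. Fos was at 136, 123 and 171 normalized counts in wild-type hearts and at 214, 188 and 146 with the deletion (log2 fold change 0.34, adjusted p = 0.31, limma), with overlap. The part of handling in the value of Ier3 was not tested.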

How the data were processed

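Stranded poly(A) libraries were made from total RNA of embryonic hearts, per the labels' protocols. Tools listed in the submitters' processing notes are STAR 2.7.9a, featureCounts with Subread 2.0.1, bcl2fastq 2.20 and DESeq2 1.30.1, with GRCm39 (mm39) as build. No source used here gives the annotation, the setting for strand or the filter on genes. The deposited values are a signal per gene, normalized counts per the file names. In each library they are whole multiples of a single step, so they were taken as read counts divided by a size factor per library. Single-column files repeat the same values and were not used.

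In R 4.3.3, limma-trend from limma 3.58.1 was fitted to log2(normalized count + 1) of all 15330 rows, with a mean of at least 10, which removed no row. Tests are two-sided, and p-values were adjusted over all rows by Benjamini and Hochberg's method, with 0.05 as threshold. The pseudocount understates changes of low genes. All values (100% within 0.01) were whole multiples of 1 read, so reads were recovered for edgeR 4.0.16 and DESeq2 1.42.0 as alternatives. The test was tried on simulated counts drawn with the same dispersion for all genes, unlike the measured ones, and no result here rests on that trial. Other alternatives were pseudocount, filter, scaling, sex, replicate block, recorded files and each library left out, and, after seeing the data, removal of a length and GC trend.

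The genes and lists were chosen with earlier results of these data known. Values by library are given for Trp53, Mdm2, Cdkn1a, Bbc3, Bax, Bcl2, Bcl2l1, Mcl1, Apaf1, Casp9, Fas and each other member with an unadjusted p under 0.05, and for up to 6 called genes of each further list, or the 3 with the smallest p where fewer than 3 were called. Pmaip1, the second Bcl2l2 row and Fos were added after their values were seen. Items withheld from the text are not reported here. Lengths are those of the longest GENCODE M21 transcript.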

Additional observations from a re-analysis of the deposited data

How the results depend on the processing

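The count of called p53 genes was 0 under each alternative that kept all 6 libraries, and 0 to 1 with each library left out, the 1 being Cdkn1a. For apoptosis genes it was 2 in DESeq2, 0 under the other alternatives with all libraries, and 0 to 1 with a library left out, the 1 being Cycs. Over all rows, 467 calls became 1139 in DESeq2, 206 with the replicate block, 0 under the recorded files, and 103 to 1161 with each library left out, where a fit has fewer samples. Of the calls over all rows 237 of 467 were higher, against 393 of 602 with equal totals without haemoglobin and 215 of 524 when corrected for length and GC content. The 3 further p53 genes became 1 with sex as a covariate, 1 with the replicate block, 0 under the recorded files and 0 to 3 with a library left out. The 1 further apoptosis gene became 2 after quantile normalization, 3 in DESeq2, 0 with the replicate block, 0 under the recorded files, 2 when corrected for length and GC content and 0 to 2 with a library left out. No pairing by replicate number showed in the values. Deviations from the group means of same-numbered libraries correlated at −0.03, −0.12 and −0.14, and no wild-type library matched its own number best. Such a check cannot tell whether same-numbered libraries shared a litter or a batch. Under the replicate block 0 p53 and 0 apoptosis genes were called. Under the recorded files the log2 fold change was 0.57 for Hand2, 0.02 for Ccng1, 0.09 for Tnfrsf10b, −0.15 for the first row of Bcl2l2, −0.0038 for Casp2, 0.14 for Casp8, −0.32 for Ier3, 0.14 for Rps27l, −0.0027 for Ddit4, −0.19 for Bnip3, −0.11 for Bnip3l and −0.27 for Tnfrsf12a. The files on record place 4 of the 6 libraries in the opposite group, so by title each of their groups mixes wild-type and deletion. The values under the recorded files therefore do not compare deletion with wild-type. The cause of the other differences between alternatives was not tested. Depth limits Fas and Pmaip1, with 16 to 62 reads per library.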
